A study of Mus musculus with 6 samples.

Results

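The genes described here are 31 mouse genes of B cell identity and B cell receptor signalling, taken by symbol from a list of B cell genes. All 31 were found among the 55335 genes of the table, and all 31 were among the 14849 genes with enough counts to be tested. They were measured by RNA sequencing in CD11b+ cells that had been sorted from the spleens of wild-type (WT) mice by flow cytometry. One group had a myocardial infarction (MI) and the other an infarction combined with renal denervation (MI+RDN), in which the nerves of the kidney are interrupted. There were 3 biological replicates of each, so both groups carry the infarct and neither is an uninjured control. The sources used here do not give the age of the mice, the time after the infarct, the purity of the sort or whether a replicate was 1 animal or a pool.

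B cells carry a surface immunoglobulin that signals through the paired chains CD79A and CD79B. Kinases and adaptors such as BLK, BTK and BLNK pass the signal on, and surface proteins such as CD22 restrain it. The identity of the cell is held by transcription factors that include PAX5 and EBF1. In the spleen, most B cells are follicular cells that recirculate through the follicles, while marginal zone B cells sit at the edge of the white pulp and depend on Notch signalling. B1 cells form a separate population that makes natural IgM, and B1 cells of body cavities can carry CD11b, the integrin chain used for this sort. CD11b is otherwise a marker of neutrophils, monocytes and macrophages.

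Library totals ranged from 21663440 to 24677865 counts in MI and from 24634555 to 28013900 in MI+RDN. Levels are given as CPM, the count of a gene per 1000000 counts of the library, with library sizes scaled by TMM factors, and fold changes are MI+RDN over MI. Each was tested with edgeR's quasi-likelihood test with Benjamini-Hochberg adjustment over all 14849 genes at a threshold of 0.05. The sort marker Itgam, which encodes CD11b, averaged 1133 ± 150 CPM with MI and 1598 ± 95.2 CPM with MI+RDN (SD, n = 3, edgeR adjusted p = 0.109). Transcripts that define B cells were present in every library. Cd79a and Cd79b, the chains of the receptor complex, summed to between 164 and 257 CPM in MI and between 89.8 and 153 in MI+RDN.

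Most of the B cell genes stood lower in MI+RDN than in MI, and only 2 of them passed the test. The fitted fold change was negative in 26 of the 31 genes and positive in 5, with a median log2 fold change of -0.81 against 0.01 over all genes tested. Tnfrsf13c, the receptor for the B cell survival factor BAFF, and Dtx1, a Notch target, fell 2.35-fold and 2.14-fold. These 2 genes are 6.45% of the list, beside the 0.714% of all tested genes that were called lower, and 0 of the 31 were called higher, beside 0.296%. The 3 libraries of one group did not overlap those of the other in 20 genes that were lower in MI+RDN, where 13.7% of all tested genes were lower in that way. They did not overlap in 2 genes that were higher, beside 12.4% of all tested genes. At an unadjusted p under 0.05 there were 22 lower genes (10.1% of all tested) and 2 higher ones (9.83%). In bulk RNA, fewer B cells in the sort and less of these transcripts per B cell cannot be told apart.

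The number of calls changed with the libraries and settings used. No B cell gene passed by the same edgeR test once MI replicate 1, MI replicate 2, MI replicate 3, MI+RDN replicate 1 or MI+RDN replicate 2 was left out. In those fits 19 to 25 of them had an unadjusted p under 0.05 by edgeR. Of all genes tested, 2444 of 15273, 2620 of 15238, 2084 of 15201, 2323 of 15268 and 3267 of 15293 did, in the same order. Few genes of any kind were then called lower, at 0.0655%, 0.00656%, 0%, 0% and 0.242% of those tested in the same order. Leaving out MI+RDN replicate 3 gave 4 calls, namely Tnfrsf13c, Pax5, Cd22 and Fcmr, beside 0.163% of all genes. Dtx1 lost its call with DESeq2 size factors (0.62% of genes called lower) and with upper-quartile factors (0.788%), which left Tnfrsf13c alone. Without scaling factors 13 B cell genes were called (2.78%), and without a filter 0 (0.0576% of 24315 genes). With genes limited to a mean of 5 CPM or more there were 6 (2.18% of 10242 genes). With antigen receptor, haemoglobin and mitochondrial genes removed there were 7 (1.32% of 14623 genes). Limma-voom called the same 2 genes (0.552%). The DESeq2 Wald test called 17 lower (2.15%) and Cd37 higher (2.3%). Its shares are over 24307 genes, weakly counted ones included, and not over the 14849 of the reported fit.

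The libraries within a group were ordered alike in most genes of the list. MI replicate 3 was the highest MI library in 24 of the 31 genes and MI replicate 2 the lowest in 23. MI+RDN replicate 3 was the highest of its group in 25. Relative to the mean of the 6 libraries, the genes averaged 0.30, 0.14 and 0.60 on the log2 scale in MI replicates 1 to 3, and -0.53, -0.51 and 0.0047 in MI+RDN replicates 1 to 3. MI+RDN replicate 3 thus lay nearest to the MI libraries.

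**Figure D1:**
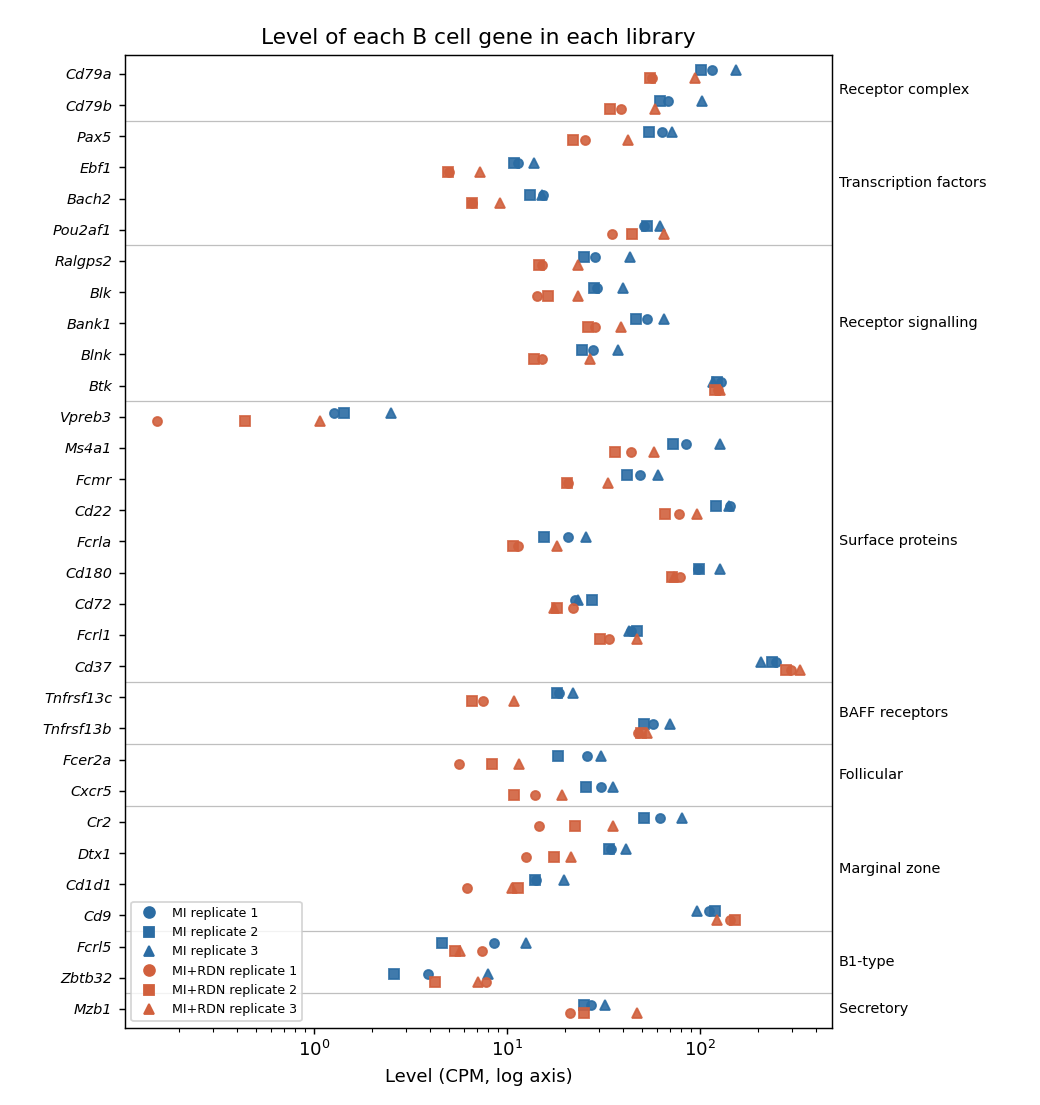
Level of each of the 31 genes in each library, in CPM on a log axis, grouped by role; blue marks are MI, orange marks are MI+RDN, and the shape gives the replicate. In 20 genes all 3 orange marks lie left of all 3 blue marks, and in 25 the MI+RDN replicate 3 triangle is the rightmost orange mark.

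The chains of the receptor complex did not pass. Cd79a (ENSMUSG00000003379), which encodes the alpha chain, stood at 116, 102 and 154 CPM in MI and at 56.6, 55.2 and 94.2 in MI+RDN. Cd79b (ENSMUSG00000040592), the beta chain, stood at 68.9, 62.5 and 103 CPM in MI and at 39.1, 34.5 and 59.0 in MI+RDN. Every MI library was above every MI+RDN library for both chains, but MI+RDN replicate 3 came close to MI replicate 2. The log2 fold changes were -0.85 (SE 0.236, edgeR adjusted p = 0.111) and -0.82 (SE 0.246, edgeR adjusted p = 0.129).

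Among the transcription factors, 3 of 4 were lower without overlap, beside 13.7% of all tested genes, and none passed. Pax5, which commits progenitors to the B lineage and represses other fates, stood at 64.0, 54.7 and 71.9 CPM in MI and at 25.3, 22.1 and 42.5 in MI+RDN, a log2 fold change of -1.09 (SE 0.238, edgeR adjusted p = 0.0690). Ebf1, an early B cell factor that acts upstream of Pax5, stood at 11.5, 11.0 and 13.9 CPM against 5.04, 4.97 and 7.31, a log2 fold change of -1.07 (SE 0.202, edgeR adjusted p = 0.0539). Bach2, a repressor that holds B cells back from plasma cell differentiation, stood at 15.5, 13.2 and 15.3 CPM against 6.62, 6.61 and 9.28 (log2 fold change -0.97, edgeR adjusted p = 0.0523). Pou2af1, a coactivator of octamer-binding factors that is also used by plasma cells, had overlapping groups. It stood at 51.6, 53.5 and 62.4 CPM in MI and at 35.1, 44.4 and 65.2 in MI+RDN, where replicate 3 was the highest of all 6 libraries (log2 fold change -0.21, edgeR adjusted p = 0.613).

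Of the 5 signalling genes, 4 had negative fold changes and none passed the threshold. Bank1, a scaffold that links receptor kinases to calcium release, stood at 53.2, 46.9 and 65.2 CPM in MI and at 28.8, 26.3 and 39.0 in MI+RDN (log2 fold change -0.81, SE 0.178, edgeR adjusted p = 0.0687). Blk, a SRC-family kinase of B cells, stood at 29.4, 28.4 and 40.2 CPM against 14.3, 16.4 and 23.5 (log2 fold change -0.85, edgeR adjusted p = 0.0897). Neither gene had overlapping groups. Ralgps2, an exchange factor for the small GTPase Ral, and the adaptor Blnk had log2 fold changes of -0.87 and -0.69 with adjusted p of 0.125 and 0.211 by edgeR. Btk, the kinase whose loss causes agammaglobulinaemia and which myeloid cells also use, stood at 128, 123 and 118 CPM in MI and at 125, 120 and 128 in MI+RDN. Its log2 fold change of 0.01 (SE 0.0805) turned to -0.12 without scaling factors, and its groups lay on top of each other.

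Of the 9 surface and associated proteins, 8 had negative fold changes and none passed. Ms4a1, which encodes CD20, stood at 84.9, 72.8 and 127 CPM in MI and at 44.0, 36.3 and 57.7 in MI+RDN (log2 fold change -1.05, SE 0.236, edgeR adjusted p = 0.0746). Cd22, a sialic-acid-binding lectin that inhibits the receptor, stood at 144, 122 and 142 CPM against 77.8, 66.0 and 96.8 (log2 fold change -0.76, SE 0.147, edgeR adjusted p = 0.0555). Both genes were lower in 3 of 3 MI+RDN libraries than in any MI library. Fcmr, the Fc receptor for IgM, stood at 48.9, 42.1 and 60.5 CPM against 20.7, 20.5 and 33.7 (log2 fold change -1.02, SE 0.22, edgeR adjusted p = 0.0677). Cd180, a Toll-like receptor homologue that myeloid cells also carry, had a log2 fold change of -0.53, again without overlap (edgeR adjusted p = 0.0763). Cd72, an inhibitory lectin, stood at -0.35, Fcrla, an intracellular Fc receptor homologue, at -0.63, and Fcrl1, a receptor of the same family, at -0.27 on the same log2 scale.

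Vpreb3, a protein of the assembling receptor in immature B cells, had the lowest level of the list. It was counted 30, 32 and 67 times in MI and 4, 12 and 25 times in MI+RDN. Its log2 fold change was -1.66 with an SE of 0.621 (edgeR adjusted p = 0.196). It was -1.21 once MI+RDN replicate 1 was left out and -2.54 once MI+RDN replicate 3 was, so its size depended on single libraries. Cd37, a tetraspanin of B cells and other leukocytes, went the other way, at 249, 237 and 208 CPM in MI and 297, 281 and 331 in MI+RDN. Its groups did not overlap and its log2 fold change was 0.39 (SE 0.109, edgeR adjusted p = 0.113), or 0.25 without scaling factors.

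**Figure D2:**
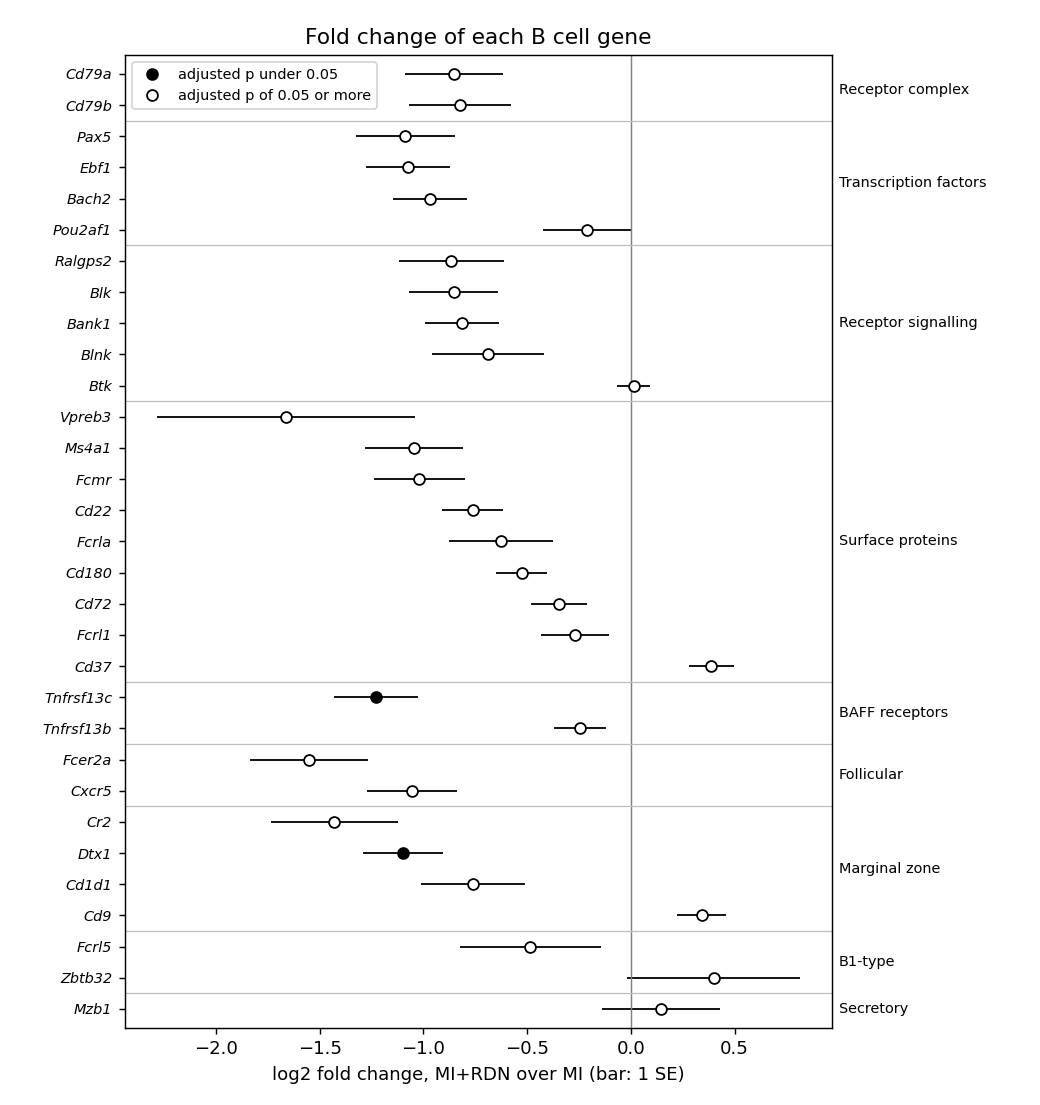
Fitted log2 fold change of each gene, MI+RDN over MI, with bars of 1 SE; filled points passed the adjusted threshold of 0.05 and open points did not. Tnfrsf13c and Dtx1 are the 2 filled points, and Btk, Cd37, Cd9, Zbtb32 and Mzb1 are the 5 genes at or right of 0.

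Receptors for the survival factors BAFF and APRIL gave different values. Tnfrsf13c (ENSMUSG00000068105), the BAFF receptor that mature B cells need to survive, stood at 18.6, 18.3 and 22.05 CPM in MI and at 7.58, 6.61 and 11.0 in MI+RDN. The log2 fold change was -1.23 (SE 0.202, edgeR adjusted p = 0.0439). Tnfrsf13b (ENSMUSG00000010142), which encodes TACI, a receptor for both factors that is high on marginal zone and B1 cells, stood at 57.3, 51.4 and 70.6 CPM in MI and at 48.2, 49.9 and 53.2 in MI+RDN. MI replicate 2 fell inside the MI+RDN range, and the log2 fold change of -0.25 did not pass (SE 0.126, edgeR adjusted p = 0.323). The fold changes of the pair were not tested against each other.

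The promoters of this pair, and those of Cd22 and Vpreb3, are shown because the BAFF receptors differ in their values and because the windows of Tnfrsf13b, Cd22 and Vpreb3 hold motifs of factors that act in B cells. The sequences are the bases before the start site in RefSeq on build GRCm38.p6, which is older than the build of the counts, given on the strand of the gene. The Tnfrsf13c and Tnfrsf13b windows overlap no annotated gene, the Vpreb3 window lies in an intron of a longer Vpreb3 model, and the Cd22 stretch was limited to the bases outside annotated exons, inside an intron of a longer Cd22 model. They are, in order, chr15:82224381-82224630 on the minus strand, chr11:61126505-61126754 on the plus strand, chr10:75948050-75948299 on the plus strand and chr7:30879029-30879176 on the minus strand. Capitals mark a match to a PU.1 core in Tnfrsf13b, to the reverse complement of the octamer in Vpreb3 and to an EBF1 palindrome in Cd22.
Tnfrsf13c: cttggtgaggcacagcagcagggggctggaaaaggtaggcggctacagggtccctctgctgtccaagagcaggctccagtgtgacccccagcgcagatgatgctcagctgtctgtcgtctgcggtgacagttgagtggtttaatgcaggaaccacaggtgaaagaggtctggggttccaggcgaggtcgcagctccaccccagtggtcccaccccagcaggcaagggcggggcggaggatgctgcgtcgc
Tnfrsf13b: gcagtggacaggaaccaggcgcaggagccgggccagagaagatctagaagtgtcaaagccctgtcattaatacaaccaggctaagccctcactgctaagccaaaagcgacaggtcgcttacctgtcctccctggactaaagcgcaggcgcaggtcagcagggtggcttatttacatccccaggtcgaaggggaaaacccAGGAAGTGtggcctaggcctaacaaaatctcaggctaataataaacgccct
Vpreb3: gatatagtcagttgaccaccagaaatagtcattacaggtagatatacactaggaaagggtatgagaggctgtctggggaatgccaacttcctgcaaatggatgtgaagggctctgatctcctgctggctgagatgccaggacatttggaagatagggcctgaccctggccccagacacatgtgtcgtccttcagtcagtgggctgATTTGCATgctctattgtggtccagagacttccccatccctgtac
Cd22: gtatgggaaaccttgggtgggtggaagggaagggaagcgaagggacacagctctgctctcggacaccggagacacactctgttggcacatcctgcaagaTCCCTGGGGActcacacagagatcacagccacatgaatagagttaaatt

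These matches lay 51 bases (Tnfrsf13b), 45 bases (Vpreb3) and 49 bases (Cd22) before the start site, counted to the first base of the match. RefSeq promoter windows were found for 25 of the 31 genes, 31 windows in all, and were searched over 250 bases on both strands. The octamer ATGCAAAT, bound by POU2F factors, was in 6.45% of the windows of these genes (Blnk and Vpreb3) and in 1.60% of all 32817 windows. The EBF1 palindrome, TCCC and GGGA with 2 bases between them, was in 3.23% (Cd22) and 0.78%, and the PU.1 core AGGAAGTG in 6.45% (Cd79a and Tnfrsf13b) and 3.14%. An NF-kB site, GGG and TTTCC with 2 bases between them, was in 3.23% (Cd9) and 1.41%. None of the windows of these genes held more than 1 of the motifs. With 1 or 2 windows behind each share, these are descriptions of the letters only. The median GC content was 52.0% in these windows and 52.4% over all windows.

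The follicular genes had the lowest median of the 3 subtypes, whose medians were not tested against each other. Fcer2a (ENSMUSG00000005540), the low-affinity IgE receptor CD23, stood at 26.0, 18.4 and 30.8 CPM in MI and at 5.66, 8.44 and 11.6 in MI+RDN. Cxcr5, the chemokine receptor that draws B cells into follicles, stood at 30.8, 25.7 and 35.5 CPM against 14.0, 11.0 and 19.3. For both genes the groups did not overlap. The log2 fold changes were -1.55 (SE 0.284, edgeR adjusted p = 0.0523) and -1.06 (SE 0.217, edgeR adjusted p = 0.0627), giving a median of -1.30 for these 2 genes, and neither passed.

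Among the 4 marginal zone genes, 1 fell, 2 more were lower without overlap and 1 was higher, for a median log2 fold change of -0.93. Of all tested genes, 0.714% were called lower and 13.7% were lower without overlap. Dtx1 (ENSMUSG00000029603), a ubiquitin ligase induced by Notch, stood at 34.8, 34.1 and 41.5 CPM in MI and at 12.5, 17.7 and 21.4 in MI+RDN, a log2 fold change of -1.10 that passed narrowly (SE 0.193, edgeR adjusted p = 0.0495). Cr2 (ENSMUSG00000026616), which encodes the complement receptors CD21 and CD35, stood at 62.7, 51.4 and 81.5 CPM against 14.7, 22.6 and 35.4. Its change was larger than that of Dtx1 but so was its error (log2 fold change -1.43, SE 0.306, edgeR adjusted p = 0.0671). Cd1d1, which presents lipids to NKT cells, stood at 14.2, 14.0 and 19.7 CPM against 6.20, 11.4 and 10.7 (log2 fold change -0.76, edgeR adjusted p = 0.155). Its close paralog Cd1d2 had at most 14 counts in a library, and how reads common to both were treated is not known. Cd9, a tetraspanin that marks marginal zone and B1 cells among B cells and is also widely made by other blood cells, stood at 112, 121 and 97.0 CPM in MI and at 143, 152 and 123 in MI+RDN. Every MI+RDN library was above every MI library for Cd9, at a log2 fold change of 0.34 (SE 0.118, edgeR adjusted p = 0.170).

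The B1-type genes showed no separation between the groups. Fcrl5, an Fc receptor homologue of B1 and marginal zone cells, stood at 8.61, 4.64 and 12.7 CPM in MI and at 7.43, 5.37 and 5.76 in MI+RDN (log2 fold change -0.48, SE 0.340, edgeR adjusted p = 0.465). Zbtb32, a zinc finger repressor expressed in B1 and activated B cells, stood at 3.92, 2.62 and 7.996 CPM against 7.85, 4.27 and 7.14 (log2 fold change 0.40, SE 0.415, edgeR adjusted p = 0.629). In both genes the spread among the MI libraries covered the MI+RDN values. The median of the 2 was -0.04. It turned to 0.44 once MI replicate 3 was left out and to 0.097 once MI+RDN replicate 2 was. Mzb1 (ENSMUSG00000024353), a cochaperone of immunoglobulin assembly in marginal zone, B1 and plasma cells, stood at 27.3, 25.2 and 32.2 CPM in MI and at 21.2, 25.0 and 47.5 in MI+RDN. Its log2 fold change was 0.15 (SE 0.283, edgeR adjusted p = 0.812) and turned to -0.30 once MI+RDN replicate 3 was left out.

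Whether these genes moved apart from the receptor itself was read from the ratio of each gene's counts to those of Cd79a in the same library, a value that does not depend on the scaling of the libraries. The 13 genes compared were chosen after their levels had been seen. Some are not confined to cells with Cd79a: Cd9 is also made by other blood cells and Mzb1 by plasma cells. Which cells gave their counts was not tested, so a ratio need not be a change within B cells. Cd79a itself had a log2 fold change of -0.85, so a gene whose level did not change is also higher in this ratio. The share of all tested genes with no overlap in this ratio was not computed. With 3 libraries against 3, an exact two-sided permutation test cannot give a p under 0.10, so none of the ratios could pass. Relative to Cd79a, Zbtb32 had log2 ratios of -4.89, -5.28 and -4.27 in MI and of -2.85, -3.69 and -3.72 in MI+RDN, higher by 1.39 on average with no overlap. Fcer2a had log2 ratios of -2.16, -2.47 and -2.32 against -3.32, -2.71 and -3.02, lower by a mean of -0.70, and Cr2 differed by -0.62, both again with no overlap. Tnfrsf13b (difference 0.64), Mzb1 (0.94) and Cd9 (1.22) were higher relative to Cd79a in every MI+RDN library, and Tnfrsf13c (-0.38) was lower. For these 7 genes the exact permutation p was 0.10, the smallest it can give, and 0.144 after Benjamini-Hochberg adjustment over the 13. The ratios of Cxcr5, Dtx1, Cd1d1 and Fcrl5 overlapped between the groups, with differences of -0.21, -0.25, 0.082 and 0.49 and exact permutation p from 0.20 to 1.

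Immunoglobulin heavy chain genes, measured beside this list, also parted in that ratio. Ighm, the mu constant gene used by naive, B1 and IgM-secreting cells, was higher relative to Cd79a by 1.19. Ighd, the delta constant gene of mature naive B cells, differed by -0.32. The groups did not overlap in either case (exact permutation p = 0.10 each). For Ighd, however, the log2 ratios of MI replicate 3 (-0.519) and MI+RDN replicate 3 (-0.542) nearly met. In CPM, Ighd averaged 93.7 ± 12.0 with MI and 43.2 ± 18.8 with MI+RDN (SD, n = 3; edgeR adjusted p = 0.0836), while Ighm had a log2 fold change of 0.37 with overlapping groups (edgeR adjusted p = 0.618).

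**Figure D3:**
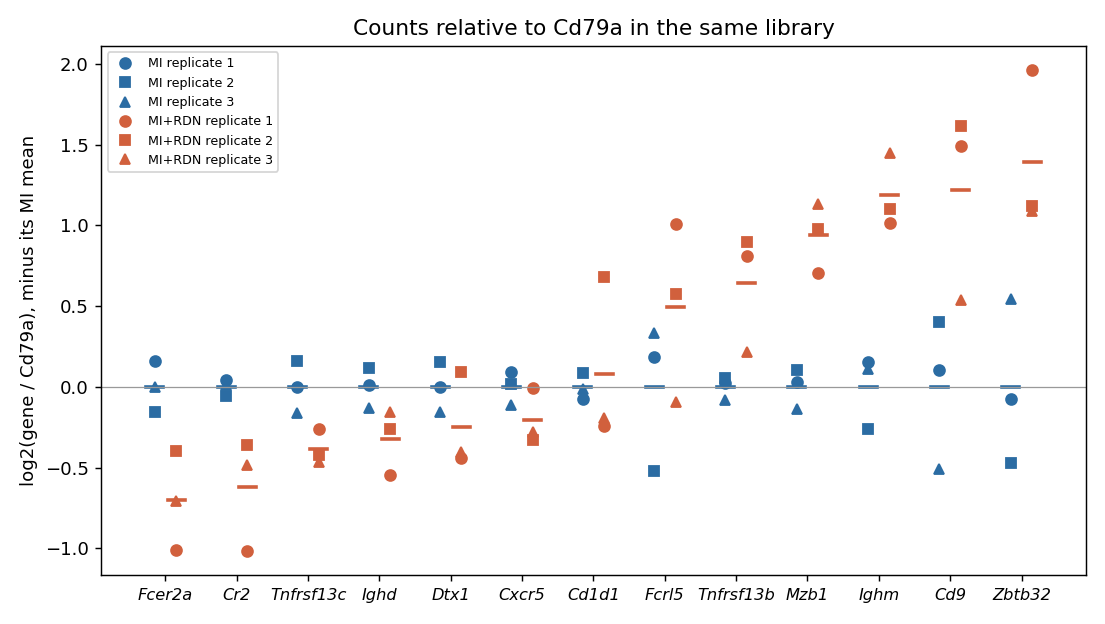
Counts of 13 genes relative to Cd79a in the same library, as log2 ratios minus the MI mean of that gene; blue marks are MI, orange marks are MI+RDN, shapes give the replicate and short bars the group means. Fcer2a, Cr2, Tnfrsf13c and Ighd lie lower in all MI+RDN libraries, and Tnfrsf13b, Mzb1, Ighm, Cd9 and Zbtb32 lie higher in all of them. Cd79a itself was lower in MI+RDN, so a gene with an unchanged level also lies higher.

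Per kilobase of the longest coding transcript, the most abundant genes of the list in MI were Cd37 (91.1 CPM per kb), Cd9 (89.5 CPM per kb) and Cd79a (84.96 CPM per kb), and the least abundant were Ebf1 (2.03 CPM per kb) and Bach2 (1.65 CPM per kb). In MI+RDN the order of the first genes changed to Cd37 (119 CPM per kb), Cd9 (113 CPM per kb), Btk (48.9 CPM per kb) and Cd79a (47.1 CPM per kb). Cd37 and Cd9, the genes of the list at the top in both groups, are also expressed outside B cells.

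Of 21 further B cell genes, 2 fell, 0 rose and 19 did not pass, where 0.714% of all tested genes fell and 0.296% rose. The fold change was negative in 17, with a median of -0.52. H2-Ob, a chain of H2-O, which inhibits peptide loading of MHC class II in B cells, fell 2.10-fold, from 80.1 ± 12.8 CPM to 38.1 ± 7.31 (edgeR adjusted p = 0.0401). Siglecg, an inhibitory lectin that is prominent on B1 cells, fell 1.71-fold, from 92.4 ± 12.8 to 54.2 ± 5.59 CPM (edgeR adjusted p = 0.0439). Cd24a, a glycoprotein of B cells that is also abundant in neutrophils, averaged 234 ± 29.95 CPM with MI and 379 ± 37.0 with MI+RDN (edgeR adjusted p = 0.0523).

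The wider receptor pathway, most of whose enzymes are used by myeloid cells too, was centred on 0. Of its 30 genes, 2 fell, 0 rose and 28 did not pass, beside the 0.714% of all tested genes that fell and 0.296% that rose. There were 14 negative and 16 positive fold changes, with a median log2 fold change of 0.04. Vav2, an exchange factor for small GTPases, fell 1.78-fold, from 60.1 ± 6.99 to 33.8 ± 0.780 CPM (edgeR adjusted p = 0.0278). The groups did not overlap for Vav2.

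Markers of other cells also differed in level between the groups, and their part in the values above was not tested. The calls below stand beside 0.714% of all tested genes called lower and 0.296% called higher. The fold change was negative in 14 of 14 T cell markers, with a median log2 fold change of -0.98. Their summed level ranged from 115 to 149 CPM in MI and from 61.7 to 84.8 in MI+RDN. Of these, 1 passed (Cd3d, 4.59 ± 0.740 CPM with MI and 1.66 ± 0.286 with MI+RDN, edgeR adjusted p = 0.0442). The defining gene Cd3e averaged 5.66 ± 1.35 CPM with MI and 2.17 ± 0.659 with MI+RDN (SD, n = 3; edgeR adjusted p = 0.0656). The 8 conventional dendritic cell markers were all negative, with 3 past the threshold (Zbtb46, Cd209a and Clec10a), a median of -0.98 and summed levels of 629 to 855 CPM in MI against 380 to 482 in MI+RDN. Plasmacytoid dendritic cells use several genes of the B cell list, and 6 of 8 of their tested markers were negative with a median of -0.70. Their summed levels overlapped, at 215 to 223 CPM in MI and 181 to 225 in MI+RDN. Tcf4, Runx2 and Bst2, which averaged 74.3, 66.2 and 38.7 CPM with MI, made up most of these sums. Of the 8 markers, 4 were lower in MI+RDN without overlap, beside 13.7% of all tested genes. Their defining gene Siglech averaged 0.9996 ± 0.0901 CPM with MI and 0.422 ± 0.148 with MI+RDN. Of 6 erythroid markers tested, 5 were negative, with sums of 386 to 775 CPM in MI and 171 to 244 in MI+RDN.

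Plasma cell and natural killer cell markers had medians near 0. Of 9 plasma cell markers, 3 were negative and 6 positive with a median log2 fold change of 0.09. Their sums were 714 to 1058 CPM in MI and 741 to 1198 in MI+RDN, highest in MI+RDN replicate 3. Xbp1 and Jchain made up most of these sums. Xbp1 averaged 391 ± 7.97 CPM with MI and 416 ± 55.8 with MI+RDN, and Jchain 381 ± 149 and 425 ± 209. The defining surface protein Sdc1 averaged 6.73 ± 2.46 CPM with MI and 6.53 ± 1.97 with MI+RDN. The 8 natural killer cell markers had a median of -0.07, with none past the threshold and sums of 205 to 225 CPM in MI and 161 to 238 in MI+RDN. Of 12 markers of CD11b+ myeloid cells, 10 were positive and 2 rose, Ly6g 2.92-fold and Ly6c2 1.89-fold, with a median of 0.34 and sums of 23104 to 27705 CPM in MI against 32171 to 38561 in MI+RDN. The negative ones were Csf1r (-0.20) and Cd68 (-0.13), and neither passed. Lyz2, S100a9 and Csf3r made up most of these sums. S100a9 averaged 4908 CPM with MI and 9738 with MI+RDN, and S100a8 1652 and 3432. Lyz2 averaged 9344 and 10070 CPM. These genes did not pass either. None of the genes in these lists was at 0 in all libraries.

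**Figure D4:**
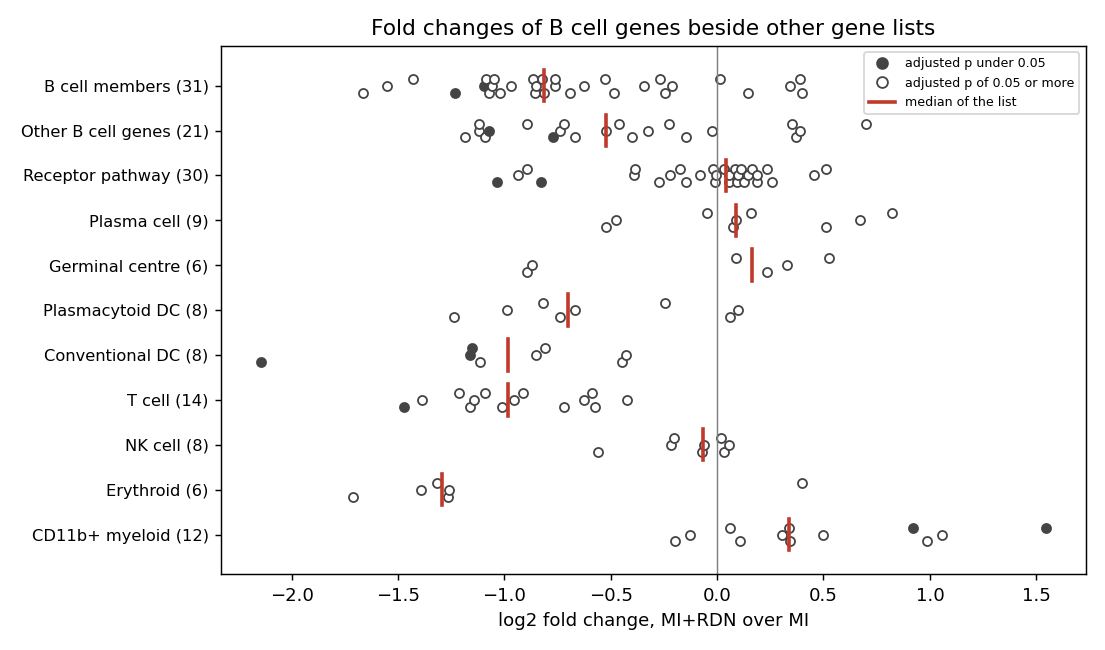
Log2 fold change of every tested gene in each list, MI+RDN over MI, with the number tested in parentheses; filled points passed the adjusted threshold of 0.05, open points did not, and red bars are list medians. The B cell genes centre on -0.81, the receptor pathway on 0.04 and the CD11b+ myeloid markers on 0.34.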

How the data were processed

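The deposited file holds counts for each Ensembl gene as whole numbers, not normalised, with 1 column per library. FastQC 0.11.2, STAR and build GRCm39 are named per the submitters' processing notes, and libraries were strand-specific per the labels' protocols. The sources used here do not give the counting tool, its annotation, its strand setting or how reads that map to several places were treated. Symbols were matched by gene ID from a reference table of mouse gene IDs (55154 of 55335 IDs). In the GENCODE M21 annotation of build GRCm38, 9 of the 31 genes overlap exons of another gene, 8 on the opposite strand (Pax5, Cd22, Cd72, Bach2, Cd37, Cxcr5, Cd180 and Cd9) and 1 on the same strand (Mzb1), so their counts are less certain.

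The tests used edgeR 4.0.16 in R 4.3.3 (filterByExpr, TMM, quasi-likelihood test, no covariates), with standard errors taken from the F statistic and the log2 fold change. Per-library means on the log2 scale used a prior count of 2. Replicate pairs of a group differed by more than sampling noise (chi-square over degrees of freedom of 12.2 to 92.5). The edgeR p-values set the difference between the groups against the spread among the libraries within a group. The common biological coefficient of variation was 20.7%. Alternatives used DESeq2 1.42.0, limma 3.58.1, other scalings and filters, the replicate number as a block and each library left out. The fitting procedure was tested on simulated data.

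All 31 genes are named. Every library's value is given for the subtype genes, Cd79a, Cd79b, Ms4a1, Pax5, Ebf1, genes past the threshold and those with the lowest p in each role. Pou2af1, Btk, Cd37, Vpreb3 and Mzb1 were added after their values were seen, as were Ighm and Ighd. Up to 3 genes with the lowest p stand for each other list, and some genes of those lists are not reported here. The genes and the lists were chosen with earlier results of these data known. Promoter searches and plots used Python 3.11.15 with matplotlib 3.10.9.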

Additional observations from a re-analysis of the deposited data

How the results depend on the processing

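With DESeq2 size factors or upper-quartile factors in edgeR, 1 B cell gene passed. Omitting scaling factors moved the median of all genes to -0.13 and gave 475 calls (413 lower and 62 higher, against 106 and 44 by the reported fit), 13 of them B cell genes. There were 21 calls with 0 B cell genes for unfiltered counts, 290 with 6 at a mean of 5 CPM or more, and 277 with 7 when antigen receptor, haemoglobin and mitochondrial genes were removed. The DESeq2 Wald test gave 1083 calls (523 lower and 560 higher), 18 of them B cell genes. With each library left out in turn, 0 to 4 B cell genes and 0 to 67 of all genes passed. The 2 fits with 0 calls lacked MI replicate 3 or MI+RDN replicate 1 and had 2084 or 2323 genes with an unadjusted p under 0.05 by edgeR.

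Over all genes tested, deviations of same-numbered libraries from their group means correlated at 0.018, -0.065 and 0.064. MI+RDN replicate 1 correlated best with MI replicate 2, so no pairing by number was seen over all genes. Among the 31 B cell genes, replicate 3 was the highest library in 24 genes in MI and in 25 in MI+RDN. Most of these genes were ordered alike across the libraries, so the counts are not separate observations. The share of all tested genes with replicate 3 highest was not computed. Whether the numbers pair the libraries for these genes was not tested. With the replicate block, 87 of 14849 genes and 12 B cell genes passed (Tnfrsf13c, Dtx1, Cd79a, Cd79b, Ms4a1, Pax5, Blk, Cr2, Bank1, Fcmr, Ralgps2 and Cxcr5), and the B1-type median turned to 0.059 (0.023 with limma-voom, and -0.34 to 0.44 with libraries left out). Btk, near 0, turned to -0.015 with upper-quartile factors, -0.017 at a mean of 5 CPM or more and -0.12 without scaling factors, and ranged from -0.026 to 0.046 with libraries left out. Mzb1 ranged from -0.30 to 0.37 and Sdc1 from -0.33 to 0.27 in the same way. The causes were not tested. The medians of all B cell genes, of the marginal zone genes and of the follicular genes were negative under every alternative run. Vpreb3, Zbtb32 and Fcrl5 had the largest standard errors of the 31 genes.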

Other observations

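Gcsam, a germinal centre gene measured beside the B cell list, averaged 3.50 ± 0.620 CPM with MI and 1.92 ± 0.207 with MI+RDN (SD, n = 3) and did not pass the threshold (edgeR adjusted p = 0.112). Of the 6 germinal centre markers tested, 2 were negative and 4 positive, with a median log2 fold change of 0.16, and the sums were 262 to 331 CPM in MI and 297 to 390 in MI+RDN. Most of that sum was Bcl6, which myeloid cells also make, at 238 ± 31.4 and 279.9 ± 43.4 CPM. Prdm1, the regulator of plasma cell differentiation that Bach2 represses, averaged 20.9 ± 0.830 CPM with MI and 14.5 ± 2.39 with MI+RDN without overlap (edgeR adjusted p = 0.111).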
